A study of Xenopus tropicalis with 9 samples.

Results

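Ubiquitin conjugating enzymes, ubiquitin ligases, deubiquitinases and autophagy genes were followed in the tail of the frog Xenopus tropicalis, an organ that is resorbed at metamorphosis. The genes were those whose symbol begins as a TRIM, F-box (fbxo, fbxw, fbxl), RNF, MARCH, cullin, ASB, USP, ube2, ube3 or autophagy gene name (atg, ulk, wipi, gabarap, map1lc3, sqstm1, becn1, bnip3), with at least 10 counts over the 9 libraries. This gave 104 genes out of 19921 in the count table and out of 6462 that carry a symbol. Symbols came only with the authors' lists of selected genes, and all 104 came from their list of genes with a mean FPKM at stage 63 more than 2 times that at stage 60. The difference between stages therefore chose these genes and is described below without being read as a result. None of the 104 came from the authors' list of genes more than 2 times higher with the notochord than without it.

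RNA-seq libraries of total RNA were made from wild type tails in 3 groups of 3: whole tail at stage 60, before metamorphosis in the study's terms, whole tail at stage 63, during it, and stage 63 tail with the notochord, the axial rod of the tadpole, removed. The labels name no treatment and do not say how many animals a library holds or whether each library is a different animal.

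As background, ubiquitin is attached to proteins by an activating (E1), a conjugating (E2) and a ligating (E3) enzyme, and proteins so marked are often degraded by the proteasome. RING ligases such as RNF and TRIM proteins bring the E2 to the substrate, HECT ligases such as UBE3 proteins carry the ubiquitin themselves, and cullin complexes use F-box or SOCS-box proteins to bind substrates. Ubiquitin-specific proteases (USP) remove ubiquitin again. In autophagy, ULK kinases start a membrane that ATG and WIPI proteins enlarge, ATG8 proteins coat it, and receptors such as sequestosome 1 link cargo to it for delivery to the lysosome. Both routes are known for protein turnover in shrinking muscle and other regressing tissues.

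Libraries held 26928846 to 34836531 counts. Levels are given as TMM-normalized CPM (counts scaled to a common library size), a scaling that assumes that most genes do not change. Between stages, however, 43.0% of all genes tested were called higher and 40.8% lower (edgeR adjusted p under 0.05). Differences are log2 values from edgeR with their standard error (SE). Scaling matters for the stages: with library totals alone the median log2 difference of all genes between stages moved by 0.821, so the stage differences below are relative to that scale. The members' counts made up 0.116% to 0.121% of a library at stage 60, 0.369% to 0.38% in whole and 0.37% to 0.376% in notochord-removed tail at stage 63. In tissue libraries, more cells of a type and more RNA per cell cannot be told apart. Of 9 notochord markers, 6 had a named row, with sums of 2264 to 2317 CPM at stage 60. At stage 63 the sums were 130.4 to 135 CPM with and 50.02 to 65.6 CPM without the notochord. Most of each stage 63 sum was the keratin gene krt8, with a mean of 108 CPM with and 52.1 CPM without the notochord. The log2 differences by notochord ran from 1.05 for krt8 to 5.35 for chad. Of the 6 markers, 5 carry a symbol only through the authors' list of genes over 2 times higher with the notochord, so that list fixed the direction of their sum. The other, tbxt, the Brachyury gene of notochord cells, was at 4.08 ± 0.216 CPM with and 0.398 ± 0.170 CPM without the notochord (mean ± SD, n = 3). Of 16 skeletal muscle markers only 3 had a named row, with sums of 1891 to 1899 CPM at stage 60 and, at stage 63, 80.01 to 83.3 CPM with and 38.3 to 53.1 CPM without the notochord. The 2 that carry the stage 60 sum, des.2 and pgam2, were likewise named only through that list. At stage 63, des.2 was at 4.38 ± 0.0928 CPM with and 0.467 ± 0.433 CPM without the notochord, and pgam2 at 50.2 ± 1.76 and 16.7 ± 1.68 CPM. The gene pygm, muscle glycogen phosphorylase, came from the stage list and was at 20.8 ± 0.998, 27.3 ± 2.26 and 26.7 ± 6.01 CPM in the 3 groups. It was thus the largest part of the sum without the notochord.

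The families were represented unevenly among the listed genes. RefSeq (assembly UCB_Xtro_10.0, used for names only) holds 320 protein-coding symbols of these families, of which 100 stood in the authors' stage list, or 31.2%, against 37.7% of all 15628 protein-coding symbols. The share was 44.4% for ubiquitin-specific proteases (20 of 45) and 43.2% for TRIM genes (16 of 37). It was 32.9% for RNF genes (26 of 79), 31.5% for F-box genes (17 of 54), 16.1% for E2 enzymes (5 of 31) and 11.1% for ASB genes (2 of 18). Of the HECT UBE3 symbols 2 of 4 were listed, and no cullin was (0 of 7). The families of the autophagy machinery had 8 of 25 symbols for initiation and lipidation, 2 of 6 for ATG8 proteins and 2 of 3 for receptors. A symbol may be missing because its ratio did not exceed 2, because it had too few counts or because its row goes by another name, so its absence says nothing on the direction of that gene. MARCH ligases cannot be counted: 5 entries of the authors' list carry a date in March in place of a symbol, as spreadsheet programs write for names such as march3, and these rows are not analysed here. The 320 symbols still include 11 MARCH symbols, all scored as not listed, so the 31.2% may be too low.

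**Figure D1:**
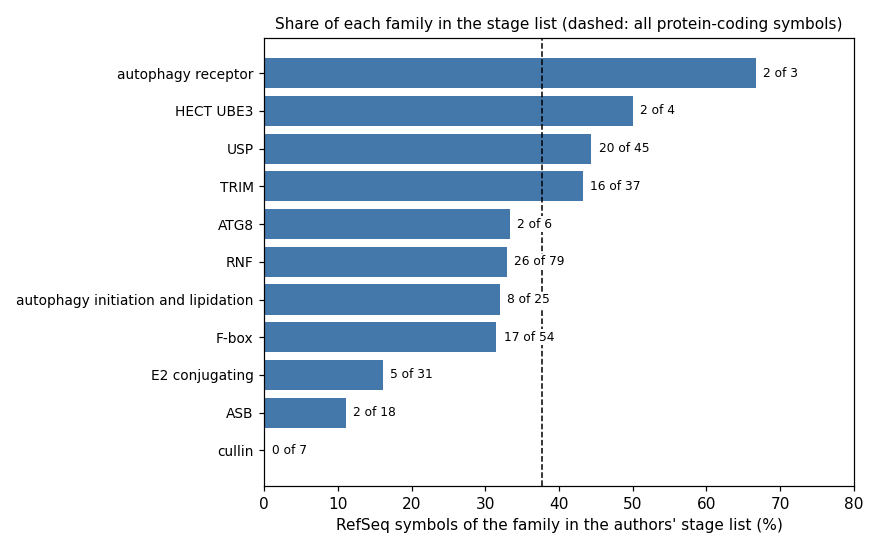
Share of the RefSeq protein-coding symbols of each family that stand in the authors' stage list (horizontal axis, percent; counts beside the bars), with the 37.7% of all protein-coding symbols as a dashed line. Autophagy receptors, HECT UBE3 ligases, ubiquitin-specific proteases and TRIM genes lie above the line and the other families drawn below it. MARCH ligases are not drawn.

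Of the 104 genes, 99 passed the filter on low counts. The other 5 were usp35, trim9, fbxo47, rnf182 and RNF224, with 18 to 75 counts over all 9 libraries. At the lower edge of the authors' rule stood USP6NL, with a ratio of 2.01 in the authors' deposited table, trim32 with 2.01 and rnf168 with 2.03. Genes just under the threshold carry a symbol only where the authors' notochord list gives one. No gene of these families was named that way, so none can be set beside them. The symbol of USP6NL meets the naming rule, but its product is known as a GTPase-activating protein for Rab proteins and not as a protease. USP6NL was not called in the notochord comparison, so leaving it out could not change the 12 higher or the 5 lower calls there.

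The E2 enzymes are described first. The gene ube2z, whose product takes ubiquitin from the alternative activating enzyme UBA6, stood at 5.22, 5.201 and 4.42 CPM at stage 60 and, at stage 63, 10.8, 10.7 and 11.7 CPM with and 10.3, 10.4 and 10.5 CPM without the notochord. For ube2q2 the values were 14.5, 13.6 and 12.04 CPM at stage 60 and, at stage 63, 29.9, 28.6 and 28.0 CPM with and 29.0, 26.2 and 22.4 CPM without the notochord. Both stage 63 groups lay above every stage 60 library, with log2 differences of 1.16 and 1.11 in whole tail. The smallest stage difference of the family was 0.27 for ube2w, which attaches ubiquitin to protein amino termini. None of the 5 E2 genes passed the test between whole and notochord-removed tail, where their log2 differences lay between -0.027 and 0.17. Over all genes tested, 11.1% passed as higher in whole tail and 14.5% as lower.

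Both HECT ligase genes were measured at moderate levels. The gene ube3b stood at 13.4, 13.03 and 14.1 CPM at stage 60 and, at stage 63, 31.3, 33.6 and 34.4 CPM with and 28.0, 27.5 and 26.7 CPM without the notochord. Its 3 groups did not overlap, and whole tail was above notochord-removed tail by 0.27 (SE 0.063, adjusted p = 0.00351). Its relative ube3c, with 22.7, 23.0 and 21.4 CPM at stage 60 and, at stage 63, 29.3, 32.0 and 34.0 CPM with and 30.4, 29.2 and 38.6 CPM without the notochord, did not differ by notochord beyond the spread, at -0.045 (95% interval -0.23 to 0.14).

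RNF genes formed the largest family, with 27 tested. Their stage differences ran from 0.20 for rnf168, which ubiquitinates histones at DNA breaks, to 2.61 for RNF165. The latter rests on 131 counts in all, 0.0515 to 0.110 CPM at stage 60 against 0.402 to 0.540 CPM in whole tail. Better measured were rnf44 and RNF125, a ligase known in human cells to limit antiviral RIG-I signalling. For rnf44 the libraries read 5.70, 4.84 and 3.59 CPM at stage 60 and, at stage 63, 16.8, 18.97 and 20.3 CPM with and 15.8, 16.7 and 16.5 CPM without the notochord, and the stage difference was 1.98. RNF125 read 2.82, 3.19 and 2.71 CPM at stage 60 and, at stage 63, 10.8, 9.96 and 9.70 CPM with and 12.7, 11.04 and 10.9 CPM without the notochord, with a stage difference of 1.80. In both genes the stage 63 libraries lay far above those of stage 60.

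Set against notochord-removed tail, whole tail had 5 RNF genes at a higher and 2 at a lower level, and 20 did not pass, where 11.1% of all genes were higher and 14.5% lower. With single libraries left out, 1 was called higher without whole tail replicate 1 or 3. Leaving out whole tail replicate 2 or notochord-removed replicate 2 gave 2. Leaving out notochord-removed replicate 1 or stage 60 replicate 3 gave 3. Over all genes, 1124, 991 and 1329 were called higher without whole tail replicates 1, 2 and 3, against 1570 with all libraries. Without notochord-removed replicates 1 and 2 these were 1359 and 1222, and without stage 60 replicate 3, 1428. RNF103, a ligase of the endoplasmic reticulum membrane, had 12.5, 12.7 and 15.6 CPM with and 11.6, 10.95 and 10.7 CPM without the notochord, a difference of 0.30 (SE 0.088, adjusted p = 0.0167). The call was lost on leaving out replicate 3 of whole tail or replicate 2 of notochord-removed tail. For rnf170, also of that membrane and known to act on the inositol trisphosphate receptor, the difference was 0.29 (SE 0.093, adjusted p = 0.0311). It was lost without whole tail replicate 1 or 3, without notochord-removed replicate 3, and with library totals alone. The difference of rnf114 was 0.26 (SE 0.079, adjusted p = 0.0196) and was lost on leaving out replicate 1 or 2 of whole tail, and replicate 3 of notochord-removed tail. The remaining 2 higher genes were rnf145 at 0.22 (SE 0.077, adjusted p = 0.0391) and rnf144b at 0.23 (SE 0.084, adjusted p = 0.0480). The first was lost in 8 and the second in 13 of the 17 alternatives, among them leaving out any one whole tail library.

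The RNF genes that were lower in whole tail were rnf168 and rnf14, a ligase with a RING-between-RING domain. RefSeq holds rnf14.2, rnf14.3, rnf14.4 and rnf14.5 and no plain rnf14. The rnf14 row may thus be 1 of several copies, and reads may be shared among them. The libraries of rnf168 held 9.29, 8.67 and 8.95 CPM with and 11.01, 10.3 and 10.5 CPM without the notochord, and the groups did not overlap. Its difference was -0.24 (SE 0.079, adjusted p = 0.0323), lost with DESeq2, without whole tail replicate 2 or 3 and without notochord-removed replicate 1 or 2. The scarce rnf14 had 1.58, 1.12 and 1.43 CPM against 1.84, 1.80 and 2.31 CPM, a difference of -0.52 (SE 0.18, adjusted p = 0.0390). It was lost with DESeq2, without whole tail replicate 2 or 3 and without notochord-removed replicate 3. Neither RNF gene was therefore called without whole tail replicate 2 or 3, where the count of lower RNF genes was 0. Over all genes, 1490 and 1693 were called lower in these fits, against 2043 with all libraries.

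TRIM genes spanned the widest range of levels. Per length of transcript, trim29 had the highest level of the 99 genes in stage 63 whole tail, at an RPKM (TMM-normalized CPM per kilobase of exon) of 230.1, above 97.7% of all genes tested. Its product, known from keratinocytes of the skin, lacks the RING domain in human. The libraries of trim29 held 150.4, 133 and 137 CPM at stage 60 and, at stage 63, 366, 316 and 314 CPM with and 405, 385 and 319.5 CPM without the notochord. Of the 12 epidermis markers, 8 had a named row, and their summed levels were 643 to 656 CPM at stage 60 and, at stage 63, 3712 to 3948 CPM with and 3536 to 3919 CPM without the notochord. All 8 were named through the stage list, which fixed the rise of their sum. None of them was at 0 throughout, and their part in the level of trim29 was not tested. The largest stage differences of the family were in trim47, at 2.09 from 1.33, 1.18 and 1.55 to 5.56, 5.91 and 5.85 CPM, and in trim13, an endoplasmic reticulum ligase, at 1.92 from 0.959, 0.824 and 0.608 to 2.86, 3.19 and 3.05 CPM. The smallest was 0.19 in trim32, known for its role in skeletal muscle.

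Against 11.1% of all genes higher and 14.5% lower, 1 of the 15 TRIM genes tested passed between whole and notochord-removed tail, as higher. This was trim3, of the TRIM proteins with NHL repeats. It had 13.8, 11.9 and 12.9 CPM at stage 60 and, at stage 63, 27.9, 25.5 and 24.5 CPM with and 21.3, 21.1 and 19.7 CPM without the notochord. No library of one group reached the range of another, and the difference by notochord was 0.33 (SE 0.072, adjusted p = 0.00245). For trim29 that difference was -0.15 (95% interval -0.33 to 0.024) and for trim47 -0.22 (95% interval -0.43 to -0.016), neither of which passed.

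The substrate receptors of cullin complexes comprised 17 tested F-box and 2 tested ASB genes. In fbxl14 the stage difference was 0.97, from 4.85, 4.58 and 4.42 to 9.67, 8.15 and 9.28 CPM, and the difference by notochord, 0.25 (95% interval 0.049 to 0.45), did not pass. The gene fbxo38 had its highest level after notochord removal, with 19.3, 21.3 and 20.1 CPM at stage 60 and, at stage 63, 23.3, 25.5 and 24.8 CPM with and 29.9, 27.3 and 30.0 CPM without the notochord. Its difference was -0.25 (SE 0.067, adjusted p = 0.0111), and the groups did not overlap. The level of fbxo30 was 57.4, 65.3 and 59.9 CPM at stage 60 and 77.7, 74.4 and 69.8 CPM in stage 63 whole tail, the smallest stage difference of the family at 0.28.

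Among the SOCS-box genes, asb9 gave the lowest adjusted p of all members in the notochord comparison. Its product binds creatine kinase in mammals. The libraries of asb9 (ENSXETG00000008522, scaffold GL173661.1, 57372 to 71556) held 9.37, 10.04 and 9.23 CPM at stage 60 and, at stage 63, 14.8, 15.1 and 17.2 CPM with and 24.1, 23.4 and 20.2 CPM without the notochord. All 3 groups were separate, and whole tail was below notochord-removed tail by a log2 difference of -0.52 (SE 0.082, adjusted p = 1.27e-04). The copy asb12.2, with 4.31, 5.22 and 4.49 CPM against 4.84, 4.97 and 4.16 CPM, was at 0.0049 (95% interval -0.23 to 0.24). Its number marks 1 of several copies in the genome, as for trim69.1 and rnf112.1, and reads may be shared among copies.

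Of the 19 ubiquitin-specific protease genes tested, including USP6NL, 3 had a higher and 1 a lower level in whole than in notochord-removed tail, and 15 did not pass, against 11.1% and 14.5% of all genes. Leaving out replicate 2 or 3 of whole tail, or replicate 2 of notochord-removed tail, left 1 called higher. Over all genes, 991, 1329 and 1222 were then called higher, against 1570 with all libraries. Without stage 60 replicate 3 or notochord-removed replicate 3, 2 were called lower. Over all genes, 1931 and 2484 were then called lower, against 2043 with all libraries. The gene usp24 (ENSXETG00000009543, scaffold GL172640.1, 2273077 to 2290213) had 8.89, 9.73 and 7.62 CPM at stage 60 and, at stage 63, 16.5, 18.3 and 17.5 CPM with and 13.5, 13.9 and 13.9 CPM without the notochord, with a difference of 0.34 (SE 0.078, adjusted p = 0.00343). In usp44, linked in human cells to the mitotic spindle checkpoint, the libraries held 9.11, 8.60 and 7.79 CPM at stage 60 and, at stage 63, 11.3, 11.9 and 13.6 CPM with and 15.1, 16.9 and 16.7 CPM without the notochord. Its 3 groups were also separate, but with the highest level after notochord removal, at -0.41 (SE 0.084, adjusted p = 0.00141).

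The largest stage differences of this family were in usp53 and usp31. The gene usp53 read 4.85, 4.33 and 4.86 CPM at stage 60 and, at stage 63, 21.9, 19.7 and 20.6 CPM with and 19.9, 16.4 and 16.2 CPM without the notochord, a stage difference of 2.15. Its difference by notochord was 0.25 (SE 0.082, adjusted p = 0.0336), with overlap of the groups, and was lost in 7 of 17 alternatives, among them leaving out any one whole tail library. For usp31 the values were 3.20, 4.79 and 4.09 CPM at stage 60 and, at stage 63, 14.9, 14.98 and 15.2 CPM with and 13.3, 15.5 and 13.9 CPM without the notochord, a stage difference of 1.90 and a difference by notochord of 0.081 (95% interval -0.10 to 0.26), which did not pass. The remaining gene higher in whole tail, usp19, with 33.8, 37.1 and 39.3 CPM against 30.1, 30.6 and 34.3 CPM and overlapping groups, stood at 0.21 (SE 0.071, adjusted p = 0.0321) and was lost in 6 of 17 alternatives, among them leaving out replicate 2 or 3 of whole tail and replicate 1 or 2 of notochord-removed tail. USP6NL had the smallest stage difference of the family, 0.18.

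Among the 12 tested autophagy genes chosen by name, the kinases that start the process had the largest stage differences. ULK2 (ENSXETG00000032595, scaffold GL172708.1, 1207941 to 1276452) read 9.69, 11.3 and 10.7 CPM at stage 60 and, at stage 63, 47.1, 51.9 and 54.7 CPM with and 47.5, 47.6 and 53.9 CPM without the notochord. For ulk1 (ENSXETG00000002028, scaffold GL172648.1, 880495 to 928737) the libraries held 11.2, 11.02 and 11.9 CPM at stage 60 and, at stage 63, 37.0, 40.1 and 41.8 CPM with and 37.1, 36.8 and 38.9 CPM without the notochord. In both genes the 2 stage 63 groups overlapped each other and lay far above stage 60. The stage differences of ULK2 were 2.28 in whole and 2.23 in notochord-removed tail, and those of ulk1 1.80 and 1.73. The notochord difference was 0.044 (95% interval -0.11 to 0.20) for ULK2 and 0.075 (95% interval -0.059 to 0.21) for ulk1.

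Of those 12 autophagy genes 1 passed the test by notochord, as higher in whole tail, where 11.1% of all genes were higher and 14.5% lower. This was ATG7, the E1-like enzyme that activates ATG8 proteins and ATG12. Its libraries held 14.5, 12.9 and 14.03 CPM at stage 60 and, at stage 63, 20.2, 20.03 and 20.95 CPM with and 16.1, 15.9 and 16.4 CPM without the notochord. The 3 groups were separate, and whole tail was higher than notochord-removed tail by 0.34 (SE 0.068, adjusted p = 0.00116). Against stage 60 the difference was 0.56 in whole and 0.23 in notochord-removed tail, the latter lost with DESeq2 and without stage 60 replicate 2. The gene atg5, whose product is joined to ATG12, read 5.38, 5.92 and 4.75 CPM at stage 60 and, at stage 63, 8.27, 9.35 and 7.66 CPM with and 8.29, 7.27 and 6.72 CPM without the notochord. Its notochord difference, 0.18 (95% interval -0.036 to 0.40), did not pass. The kinase complex subunit gene atg13 and the lipid transfer genes ATG2A and atg2b had stage differences of 0.90, 0.67 and 0.89. The phosphoinositide-binding wipi1 had 30.9, 25.7 and 30.4 CPM at stage 60 and 34.2, 32.9 and 34.0 CPM in whole tail, a stage difference of 0.22.

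Cargo receptor and ATG8 genes were among the most abundant members. Per length, sqstm1 and gabarapl1 came next after trim29 in stage 63 whole tail, at an RPKM of 129.5 and 112, and map1lc3b stood at an RPKM of 51.5. The receptor gene sqstm1 (ENSXETG00000015913, scaffold GL172914.1, 798090 to 805823) read 99.1, 93.9 and 95.5 CPM at stage 60 and, at stage 63, 229, 216 and 211 CPM with and 214, 213 and 205 CPM without the notochord. The ATG8 gene gabarapl1 read 177, 179.8 and 169 CPM at stage 60 and, at stage 63, 329, 304 and 281 CPM with and 306, 299 and 276 CPM without the notochord. Its relative map1lc3b, the LC3 protein used as an autophagosome marker, read 116, 120.5 and 118 CPM at stage 60 and, at stage 63, 179.6, 190.4 and 188 CPM with and 187, 178 and 176 CPM without the notochord. In all 3 genes the stage 63 groups overlapped each other and lay above stage 60, by 1.18, 0.80 and 0.65 in whole tail. The mitophagy receptor gene bnip3l, by contrast, had 37.2, 35.3 and 33.6 CPM at stage 60 and, at stage 63, 38.3, 42.2 and 42.3 CPM with and 35.1, 35.5 and 41.0 CPM without the notochord, with a stage difference of 0.21. The intervals of the notochord difference were -0.071 to 0.18 for sqstm1, -0.089 to 0.20 for gabarapl1, -0.080 to 0.16 for map1lc3b and -0.015 to 0.29 for bnip3l.

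**Figure D2:**
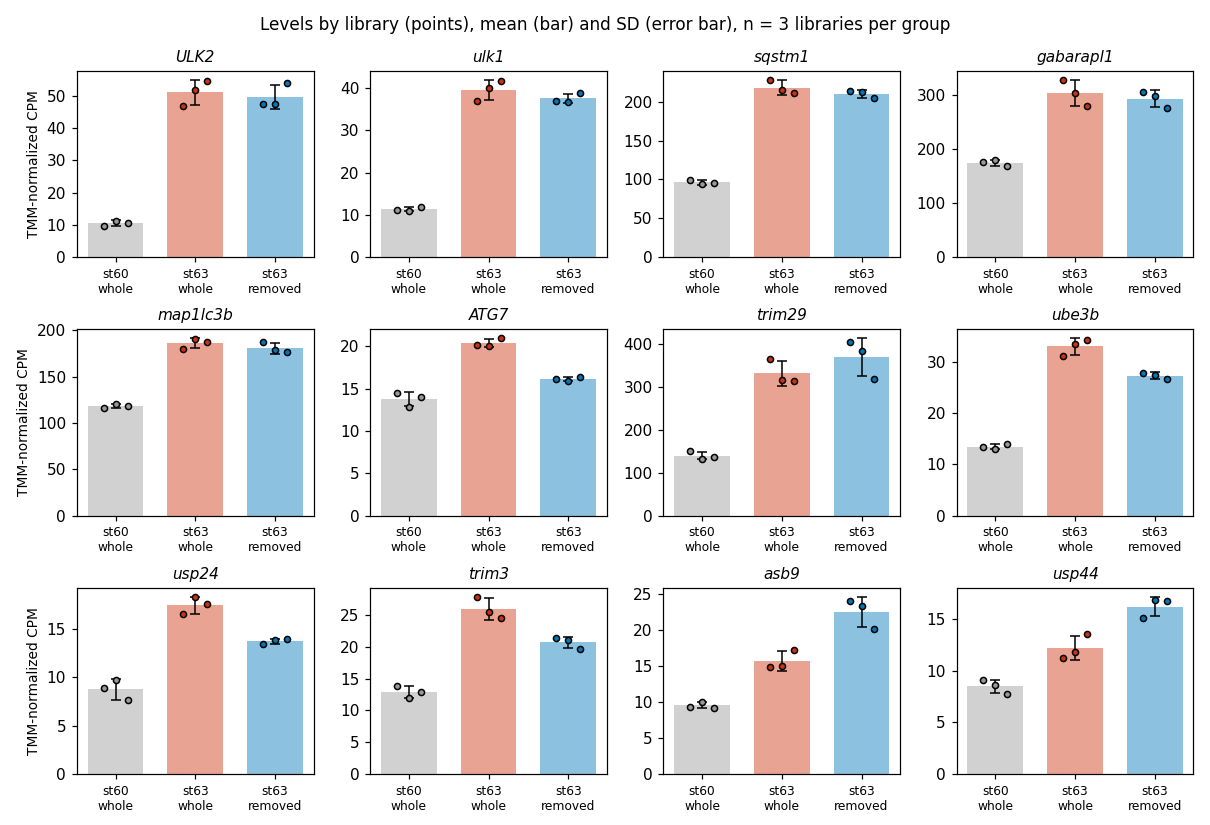
TMM-normalized CPM (vertical axes, from 0) of 12 members in each library (points), with group means (bars) and SD (error bars), n = 3 libraries per group. The stage 63 groups of ULK2, ulk1, sqstm1, gabarapl1, map1lc3b and trim29 overlap, those of ATG7, ube3b, usp24 and trim3 are higher in whole tail, and those of asb9 and usp44 higher after notochord removal.

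The notochord comparison asked which transcripts at stage 63 differed between whole tail and tail without notochord, and over all members it gave few and small differences. At an adjusted p under 0.05 (edgeR, Benjamini-Hochberg adjustment over 14125 genes), the 99 members included 12 higher in whole tail (12.1%) and 5 lower (5.05%), and 82 did not pass. The background was 11.1% higher and 14.5% lower over all genes tested, and 14.8% higher and 8.53% lower over the 5579 tested genes that the authors' stage list gives a symbol. The members' share of higher genes was thus near both backgrounds. The share of lower genes lay below both, without a test of that difference. No member was called at 2-fold, a size reached upward by 1.02% of all genes. For 17 members (17.2%) every whole tail library lay above every notochord-removed library, against 18.3% of all genes. Among the 5579 named stage-list genes this held for 1330, a larger share. For 9 members (9.09%) every one lay below, against 2971 of the 14125 genes and 764 of the 5579, both larger shares. The members' median log2 difference was 0.061, against 0.060 for the named genes of the stage list and 0.0065 for all genes. Stage 63 whole tail enters both this comparison and the ratio by which the authors listed the genes, so that choice and this comparison are not independent.

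The 95% interval of the difference lay within 1.5-fold in either direction for 91 of the 99 members, and within 2-fold for 98. These bounds hold for the tail as a whole and set no bound on a difference between notochord cells and other cells. Outside 1.5-fold in part were asb9, rnf14, RNF165, rnf144a, fbxo41, trim67, trim71 and usp45, of which all but asb9 had at most 822 counts over the 9 libraries. Among the calls that held in all 17 alternatives were those of usp24, ATG7, trim3 and ube3b, higher in whole tail, and of asb9, usp44 and fbxo38, lower. Without whole tail replicate 3 there were 7 higher and 3 lower, where 1329 and 1693 of 14222 genes were. Without whole tail replicate 2 there were 8 higher and 3 lower, where 991 and 1490 of 14227 genes were. With library totals alone there were 7 higher and 5 lower, where 1218 and 2360 of 14125 genes were. With DESeq2 there were 11 and 3, where 1509 and 1666 of all genes were. The main fit called 1570 genes higher and 2043 lower.

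**Figure D3:**
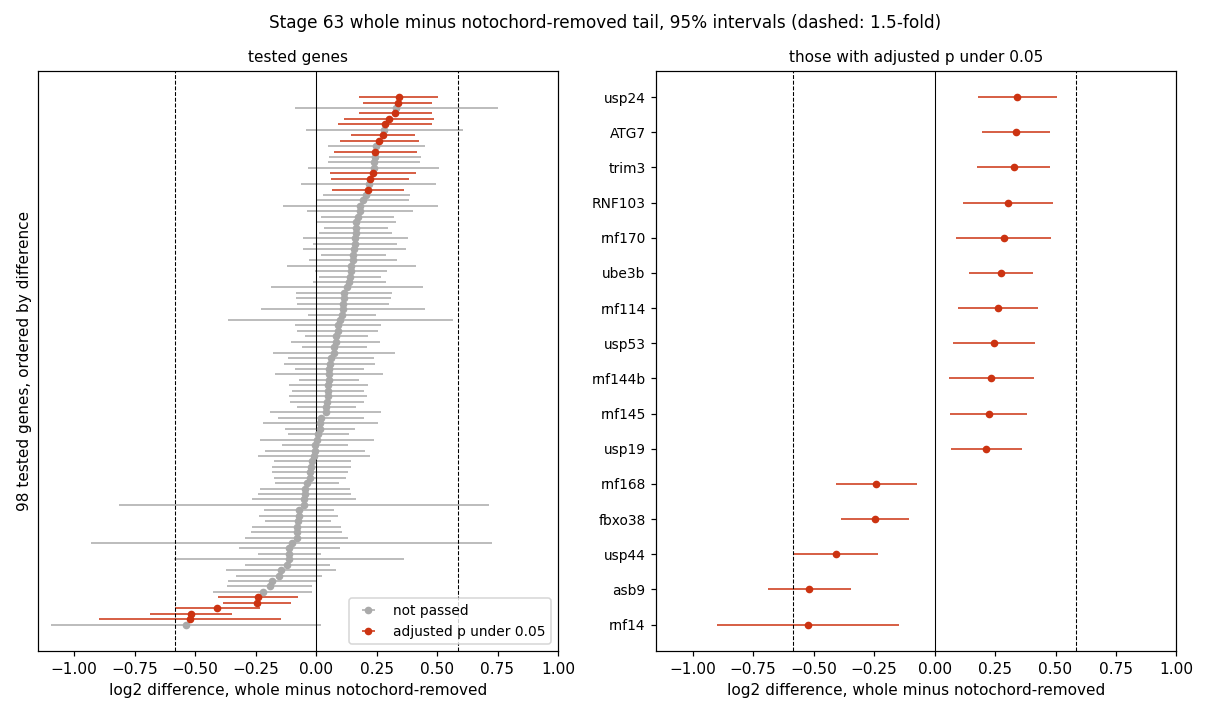
Log2 difference between stage 63 whole and notochord-removed tail (horizontal axes; points with 95% intervals) for 98 of the 99 tested members on the left and 16 of the 17 with adjusted p under 0.05 on the right. The dashed lines mark 1.5-fold; 90 of the intervals drawn lie between them, and the called differences run from -0.52 to 0.34.

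Some markers of other cells also differed in this comparison, where 11.1% of all genes were called higher in whole tail and 14.5% lower. Of the named stage-list genes 14.8% were called higher and 8.53% lower. Of 13 macrophage and leukocyte markers, 11 had a named row, and their summed level was 1680.5 to 1724 CPM with and 1428 to 1509 CPM without the notochord. Of these, 6 were called higher and 1 lower in whole tail. The sum follows mmp9, at 424 ± 34.9 CPM with and 276 ± 31.1 CPM without the notochord, and mpo, at 169.8 ± 8.08 and 93.0 ± 9.06 CPM. The macrophage receptor gene csf1r did not pass, at 571 ± 7.04 and 577 ± 8.99 CPM, and lcp1 went the other way, at 289.5 ± 16.2 and 331 ± 5.004 CPM. All 10 endothelium markers had a named row, 5 of them called lower in whole tail and 0 higher, with sums of 199 to 204 CPM with and 233 to 254 CPM without the notochord. No named marker of either list was at 0 in all libraries. Of 8 named epidermis markers 1 was called higher and 1 lower, and of 5 named neuron and glia markers 1 higher and 0 lower. The early response gene egr1, known to be induced by wounding, was 81.7 ± 4.98 CPM with and 322 ± 3.02 CPM without the notochord (mean ± SD, n = 3). The part of these in the 17 differences was not tested.

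Against stage 60, notochord-removed tail can be set beside whole tail, with the limit that both comparisons share the stage 60 libraries that chose the genes. For whole tail, both groups compared entered the ratio that chose the genes, so its counts are description only. There 92 of 99 members passed upward and none downward, where 43.0% and 40.8% of all genes did. Of the named stage-list genes 93.4% passed upward in whole tail. In notochord-removed tail, whose libraries did not enter the authors' stage ratio, 86 passed upward and none downward, where 43.3% and 39.7% of all genes did, as did 89.8% of the named stage-list genes upward. The shares of all genes depend on the scaling. With library totals alone, 9501 of the 14125 genes passed upward and 2821 downward in whole tail, and 9794 and 2566 in notochord-removed tail. At 2-fold the members passing were 27 in whole and 24 in notochord-removed tail, against 23.9% and 23.3% of all genes and 50.9% and 49.4% of the named stage-list genes. The groups of whole tail did not overlap for 92 members, against 44.0% of all genes and 5252 of the 5579 named stage-list genes. The members' median log2 difference was 0.73 in whole and 0.69 in notochord-removed tail, where the named stage-list genes had 1.02 and 0.99.

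By family, the median difference from stage 60 in whole and in notochord-removed tail was 0.87 and 0.75 for ubiquitin-specific proteases and 0.76 and 0.69 for TRIM genes. It was 0.72 and 0.69 for RNF genes, 0.63 and 0.62 for F-box genes and 0.40 and 0.43 for E2 enzymes. The autophagy initiation and lipidation genes had 0.78 and 0.73. Members that did not pass against stage 60 in notochord-removed tail were wipi1, bnip3l, UBE2O, ube2w, fbxl12, rnf170, rnf115, rnf208, rnf34, trim67, trim71, trim32 and usp45. Those that did not pass in whole tail were rnf144a, rnf208, rnf34, trim67, trim71, usp45 and USP6NL.

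**Figure D4:**
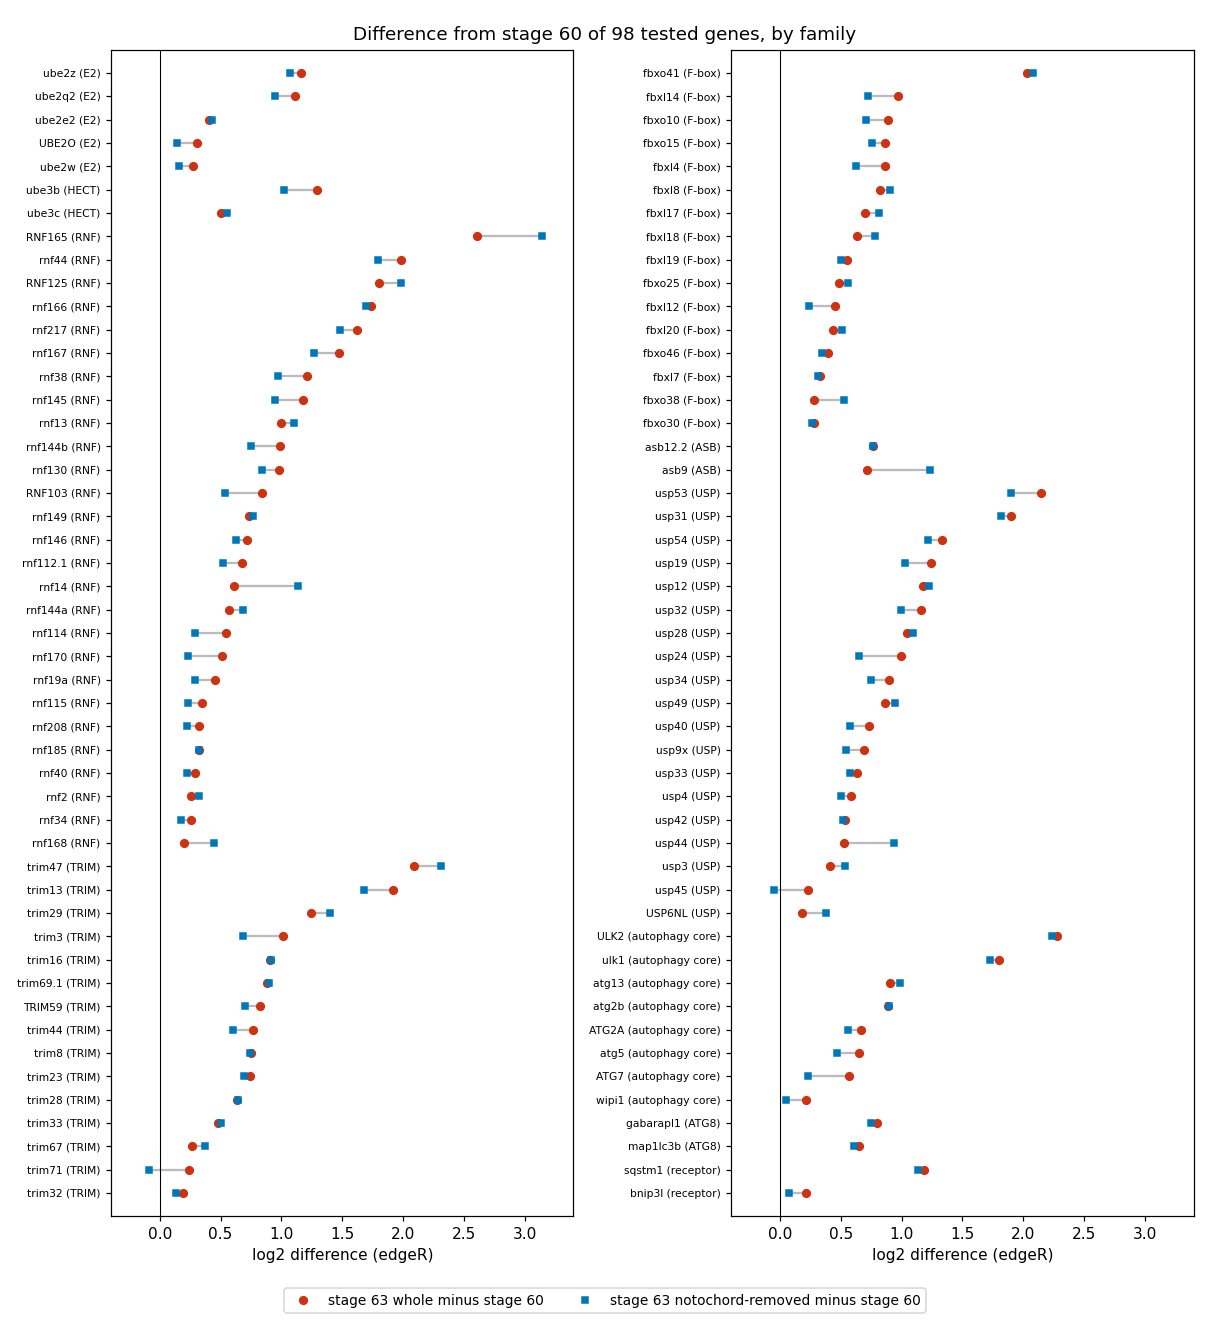
Log2 difference from stage 60 (horizontal axes) of 98 of the 99 tested members, grouped by family, in stage 63 whole tail (red circles) and notochord-removed tail (blue squares). Both symbols share the stage 60 libraries; ULK2 lies at 2.28 and 2.23, and asb9 at 0.72 and 1.24.

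Other genes of these pathways were taken from lists of symbols and are subject to the same selection of names. Of 48 proteasome symbols 3 had a named row. One of these, psmb8, a subunit of the immunoproteasome, was 15.7 ± 0.586 CPM at stage 60 and, at stage 63, 26.0 ± 0.876 CPM with and 9.09 ± 0.940 CPM without the notochord (mean ± SD, n = 3). Its level in whole tail exceeded that in notochord-removed tail by 1.52 (SE 0.079), with no overlap, and the other 2, psme3 and PSMF1, did not pass. The E1 list had 1 named row of 8, sae1 of the SUMO pathway, which did not pass.

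Of 30 tested ligases outside the families above, 6 were higher in whole tail and 3 lower, where 14.8% and 8.53% of the named stage-list genes and 11.1% and 14.5% of all genes were. The higher ones included birc2, an inhibitor of apoptosis with a RING domain, at 0.28 (SE 0.065), with 287 ± 16.5 CPM with and 236 ± 11.2 CPM without the notochord. HECTD2 was at 0.46 (SE 0.13), and traf2, nedd4l, ubr2 and cbl at 0.27, 0.24, 0.24 and 0.22. The lower ones were the HECT ligase nedd4 at -0.38 (SE 0.085), siah2 at -0.46 (SE 0.12) and hace1 at -0.22 (SE 0.071). Of 22 cullin adaptor genes, spop alone passed, at 0.21 (SE 0.061), and none of 6 deubiquitinases of other families did (edgeR adjusted p).

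Among 36 further autophagy identifiers, 9 were higher in whole tail and 2 lower, against the same backgrounds of 14.8% and 8.53%, and 11.1% and 14.5%. The transcription factor gene tfeb, known to activate lysosomal and autophagy genes, had 17.8 ± 1.36 CPM at stage 60 and, at stage 63, 24.7 ± 1.94 CPM with and 17.7 ± 1.26 CPM without the notochord. Its whole tail was above notochord-removed tail by 0.49 (SE 0.079), the largest difference of this list, and its relative tfe3 did not pass at 0.045 (SE 0.063). The other higher genes were mitf, EPG5, fnip2, prkaa1, RUBCN, sesn3, tecpr2 and uvrag, at log2 differences of 0.32, 0.21, 0.17, 0.18, 0.21, 0.20, 0.29 and 0.24. The lower genes were pik3r4, a subunit of the lipid kinase complex that acts in autophagy, at -0.35 (SE 0.065), and vmp1, a membrane protein of autophagosome formation, at -0.34 (SE 0.063). For vmp1 the levels were 159 ± 9.02 CPM with and 200.3 ± 5.97 CPM without the notochord. The folliculin-interacting genes fnip1 and fnip2 had stage differences of 2.71 and 2.56, and tp53inp1 of 3.27, from 3.38 ± 0.452 to 32.9 ± 3.01 CPM. These stage differences were picked after their values were seen.

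Between replicates the members varied like other genes. The median coefficient of variation of the 99 members was 7.71% at stage 60, 6.18% in whole and 7.64% in notochord-removed tail at stage 63, against 7.08%, 6.64% and 8.12% over all genes tested. Their median level per length in stage 63 whole tail was an RPKM of 7.25, against 6.37 for all genes tested. Their median exon length was 2046 bases, against 1770. Scaffold positions are as printed in the deposited counts, on a build that no source used here names.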

How the data were processed

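The submitters' processing notes name STAR 2.5.4a and featureCounts 1.5.2 for the RNA-seq reads of the tails. They name neither a build nor a strand setting, so reads of a gene and of one that overlaps it may be mixed. The deposited count table holds raw counts per Ensembl gene. The authors' deposited lists give FPKM means for the groups, with their ratio. The FPKM values were within 1% of counts divided by library total and gene length for 100% of the stage list, so they carry no composition factor.

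Groups followed the labels, 3 libraries each. As no label ties libraries to different animals, the p-values reflect spread between libraries, which may be technical. In R 4.3.3, edgeR 4.0.16 (filterByExpr, TMM, robust glmQLFit, glmQLFTest) was fitted to all 9 libraries with group means. It tested 14125 of 19921 genes, with Benjamini-Hochberg adjustment over all of them. SE was the log2 difference divided by the square root of F, and is approximate.

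Members, lists and tests were chosen with earlier results of these data known. Named genes were those of a fixed set that had a named row, the 2 largest and 1 smallest stage difference per family, and up to 8 called genes per direction by notochord, at 1 CPM or more. The further genes called by notochord (usp19, rnf145 and rnf144b), trim29, RNF165, atg13, ATG2A and atg2b were added after their values were seen. Pathway genes outside the families were named where called by notochord, and the rest (psme3, PSMF1, sae1, tfe3, fnip1, tp53inp1 and markers) after their values were seen. Alternatives were other scalings, filters and tests (DESeq2 1.42.0, limma-voom, limma 3.58.1), thresholds, a block for the replicate number, and single libraries left out. On simulated counts with 200 changed genes, 80% of genes changed 1.5-fold and 94% changed 2-fold were recovered in the notochord comparison, with 7 calls among 13925 unchanged genes. The called members all differed by less than 1.5-fold, so recovery at their size was not simulated. In the data many more genes were called, 1570 higher and 2043 lower. No sequence tables were used here, and a member counted in the totals is not reported by name.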

Additional observations from a re-analysis of the deposited data

How the results depend on the processing

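Each comparison was recomputed under 17 alternatives of scaling, filter, test, block and left-out library, and with 2 further thresholds. Members called higher at stage 63 in whole tail were 92, and 86 to 98 over the scaling, filter and test alternatives. In notochord-removed tail against stage 60 they were 86, and 82 to 99. No member was called lower against stage 60 under any of them. With single libraries left out these counts ran from 87 to 94 and from 84 to 88. Requiring 2-fold left 27 and 24. In the notochord comparison 12 were higher and 5 lower. Of higher genes, 7 were called with library totals alone, 4 at adjusted p under 0.01 and 0 at 2-fold. Of lower genes, 3 were called with DESeq2, 2 at adjusted p under 0.01 and 0 at 2-fold. At an unadjusted p under 0.05, 30 of 99 members passed in either direction, against 5277 of all 14125 genes, which is a larger share. With single libraries left out the members' counts ran from 7 to 16 higher and from 3 to 7 lower. Of the 23 calls made without notochord-removed replicate 3, 12 were shared with the main fit. Over all genes the counts ran from 991 to 1939 higher and from 1490 to 2484 lower, against 1570 and 2043 with all libraries. The cause was not tested, except that a stricter threshold makes fewer calls by construction.

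Same-numbered libraries of different groups deviated together with correlations from -0.0324 to 0.247. Between the 2 stage 63 groups these were 0.21, -0.0324 and 0.247 for replicates 1, 2 and 3. Differently numbered libraries of those groups had correlations from -0.288 to 0.155. As not all same-numbered correlations were above 0.1, the numbers were not taken to pair the libraries. Those of replicates 1 and 3 were still the highest between these groups, and pairing was not tested further. With the replicate block 16 members were higher and 6 lower by notochord. Over all genes, 1951 were then higher and 2253 lower, against 1570 and 2043 without it. Against stage 60, the block gave 93 members higher in whole and 86 in notochord-removed tail.

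Changes of sign were looked for only in the genes named by rule, and the other members were not checked in this way. Among the genes checked, log2 differences that changed sign passed the threshold neither before nor after the change. With single libraries left out, the notochord difference ran from -0.0086 to 0.11 for gabarapl1, from -0.0067 to 0.11 for ULK2, from -0.078 to 0.054 for asb12.2, from -0.034 to 0.067 for fbxo30 and from -0.12 to 0.093 for ube3c. With library totals it was -0.027 for asb12.2 and -0.016 for fbxo30. The difference of notochord-removed tail from stage 60 ran from -0.035 to 0.11 for wipi1 and from -0.00076 to 0.12 for bnip3l. With library totals alone that difference was 0.91 for wipi1 and 0.93 for bnip3l. The median of all genes was then 0.92, against 0.068 with TMM. Depth limits the genes under 1 CPM, where the intervals of fbxo41, trim67 and RNF165 reach past 1.5-fold.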
